A study of Homo sapiens with 9 samples.

Results

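The RUNX and NFI factors are regulators of bone, cartilage and glial fate. The genes RUNX1, RUNX2, RUNX3, CBFB, NFIA, NFIB, NFIC and NFIX were chosen by name, with earlier results of these data known. The rule itself used no measured value, and the genes make up 8 of the 18970 gene symbols counted. They were followed in cranial neural crest cells (CNCCs) differentiated in culture from the H9 line of human embryonic stem cells. In every sample both copies of SOX9 carried a degron, so that dTAGV-1 sends SOX9 protein to degradation. The 9 samples fell into groups of 3, treated with dTAGV-1 (500 nM) for 0h, 3h or 24h, and the labels give relative SOX9 levels of 100%, 0% and 0%. The labels list the same compound and dose for the 0h group, at a time of 0h, while the protocol names DMSO as vehicle control, so what the 0h cells received is not settled by the labels. All samples took up 100 uM 4-thiouridine for 2 h, added 1 h into the treatment for the 3h group and 22 h into it for the 24h group. Alkylated 4-thiouridine reads as a T>C conversion, so T>C reads come from RNA made during the labelling (SLAM-seq), and libraries were sequenced from the 3′ end of the transcript. Each group held the same 3 cultures, S9CC13_R6, S9CC47_R5 and S9CC47_R6, named after 2 edited clones and 2 differentiation batches. The set therefore has 1 culture of clone S9CC13, and its p-values measure the spread between these cultures.

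Neural crest cells of the head give rise to bone, cartilage and the glia of peripheral nerves. RUNX proteins bind DNA through a Runt domain, and CBFB, which does not bind DNA itself, strengthens that binding. RUNX2 is the factor without which osteoblasts do not form, RUNX3 acts with it in maturing chondrocytes and in sensory neurons, and RUNX1 is known best for blood formation. The NFI proteins bind DNA as dimers and are known for turning on glial genes in the nervous system, where SOX9 acts upstream of NFIA. In the growth plate SOX9 holds cartilage cells in their early state, and it can restrain RUNX2.

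Among the members that passed the filter, RUNX2 had the largest fitted difference between times in T>C reads, so the sequence before its first listed start is shown. RUNX proteins recognise TGTGGT, which reads ACCACA on the opposite strand. Among 35116 windows of 250 bases before annotated starts (RefSeq, GRCh38.p14), 11% held TGTGGT on either strand, 40.8% held the NFI letters TTGGC and 24.6% the SOX letters ACAAT. Windows were listed for 7 of the 8 genes. The window of the distal RUNX2 start held 2 matches to TGTGGT, 1 to ACAAT and 0 to TTGGC, and the window of its second listed start held none of the 3. The matches began 191 and 87 bases before the start of the distal window's transcript, and both are shown on the plus strand with the match in capitals. The nearer match lies past base 45328157, where the annotated gene begins, so it is not upstream of every annotated start.
RUNX2 before the first annotated exon, chr6:45328080-45328156: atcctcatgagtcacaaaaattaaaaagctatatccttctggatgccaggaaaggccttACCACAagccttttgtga
RUNX2 match nearer the start, chr6:45328231-45328260: gtgaggtcacaaACCACAtgattctgcctc
One RUNX3 window also held 2 matches to TGTGGT, with 3 to TTGGC. No window listed for RUNX1, NFIA, NFIB, NFIC or NFIX held TGTGGT. These matches describe letters and not binding.

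Libraries held 16955633 to 28782678 reads in all and 3130673 to 5475800 T>C reads. All 12 crest markers were measured, with a summed level of 4110 to 4120 CPM (counts scaled by library total) of all reads at 0h, 4960 to 5120 at 3h and 6200 to 6470 at 24h, and SOX9 is among them. Scaled by size factor, SOX9 went from 16730 ± 805 reads at 0h to 37290 ± 2260 at 24h, and MSX1 from 13670 ± 914 to 31010 ± 2520 (mean ± SD, n = 3 per time). NR2F1 did not rise (23260 ± 543 and 22480 ± 995), and SNAI2 went from 271 ± 23.4 at 0h to 187 ± 29.5 at 3h and 302 ± 53.3 at 24h. The sum therefore does not describe each marker. Of the 12 markers in all reads, 3 were called higher and 1 lower at 3h, beside 1.89% of all genes called. At 24h 7 were called higher and 0 lower, beside 15.0%. All 8 markers of blood and vessel cells stayed under 1 CPM in every library, with GATA1 at 0. Of 6 neuroepithelial markers 5 stayed under 1 CPM, with SOX1 at 0. The other, LHX2, stayed at 1.35 CPM or less, and all its reads were called higher at 24h (log2 fold change 2.10, SE 0.711, adjusted p = 0.0349, DESeq2). Scaled by size factor, LHX2 averaged 4.62 ± 2.08 before treatment against 23.3 ± 4.21 after 24h (mean ± SD, n = 3 per time). It therefore met the level required for testing, 1 CPM in 3 or more libraries, through treated libraries only. The T>C reads of LHX2 were not called at 24h (3.02, SE 1.08, adjusted p = 0.104, DESeq2). No alternative fit is given here for this gene, and the part of LHX2 in the members' results was not tested. Of 7 pluripotency markers 5 stayed under 1 CPM, while the sum, carried by LIN28A and DPPA4, was 350 to 414 CPM at 0h, 304 to 349 at 3h and 282 to 306 at 24h.

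Read numbers set the 8 genes apart in what can be measured. CBFB, NFIC, NFIA and NFIB were present in every library at both read kinds, RUNX2 and RUNX3 were scarce, and RUNX1 and NFIX were at the detection limit. The filter of 1 CPM in 3 or more libraries was passed by 6 of 8 genes in T>C reads and by CBFB, NFIA, NFIB and NFIC in all reads. RUNX2 passed in T>C reads through its 3 libraries at 24h and 1 at 3h, so its place among tested genes depends on the group where it was high.

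**Figure D1:**
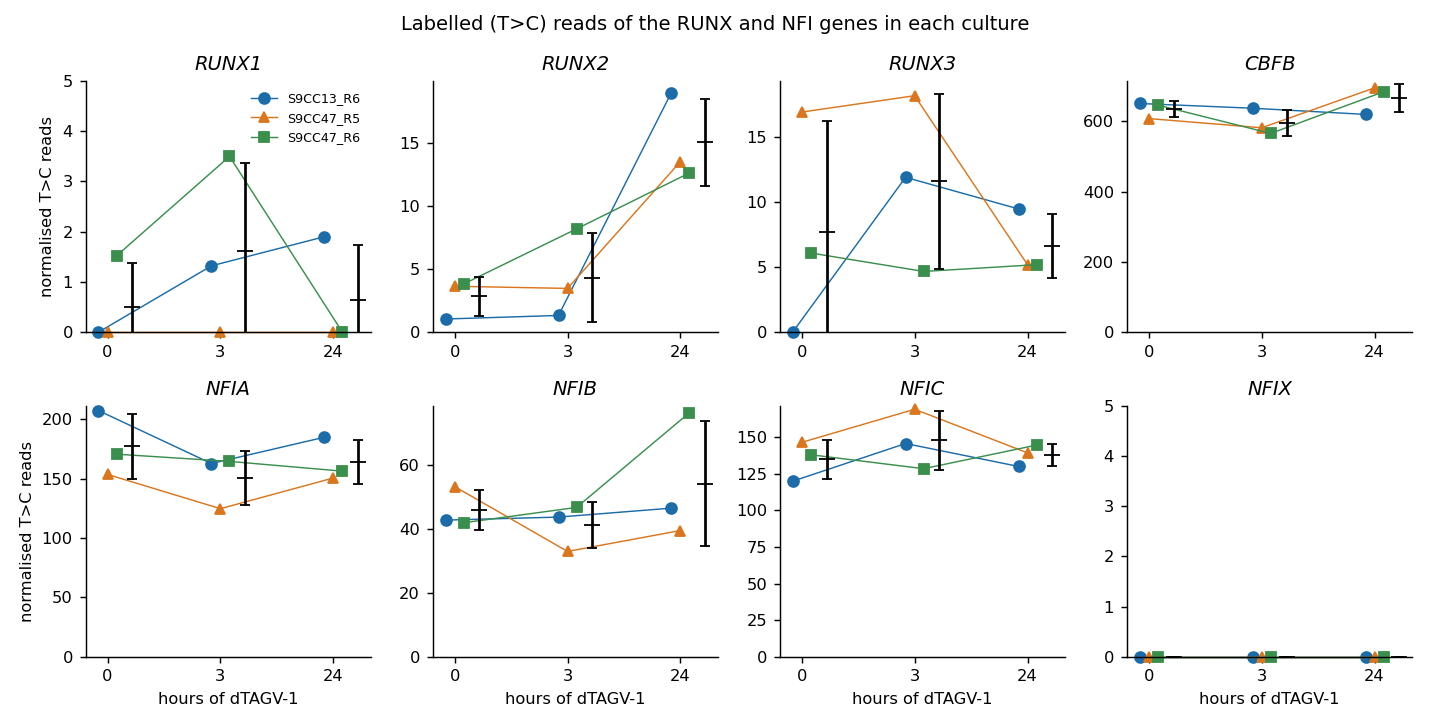
T>C reads of the 8 genes in each culture, divided by the library's size factor (vertical axis from 0, a scale of its own for each gene), at 0, 3 and 24 hours of dTAGV-1. Coloured points are cultures, and black bars are the mean and SD of 3 samples, cut off at 0. The RUNX2 points at 24h lie between 12.6 and 19.0, above every point at 0h, while the CBFB, NFIA, NFIB and NFIC points at 24h overlap those at 0h.

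RUNX2, which lies on chromosome 6 from 45328157 to 45664349 (hg38, plus strand), had the largest difference between times among the 6 members tested in T>C reads. At 0h its T>C reads were 1 in S9CC13_R6, 3 in S9CC47_R5 and 5 in S9CC47_R6. The 3h libraries held 1, 4 and 7 in the same order of cultures, and the 24h libraries 20, 13 and 17. The 24h libraries lay above all others in raw reads, and the 3h libraries overlapped those at 0h. All reads followed the same order, with 1, 3 and 8 before treatment (0h), 1, 6 and 8 after 3h, and 29, 16 and 25 after 24h.

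Divided by size factors, RUNX2 had 2.83 ± 1.55 T>C reads before treatment, 4.32 ± 3.50 after 3h and 15.0 ± 3.45 after 24h (mean ± SD, n = 3 per time). The 0h and 3h levels did not differ beyond their spread, and the 24h level lay above both. The ratio of T>C reads, each over its library's T>C total, at 24h against 0h was 18.3 in S9CC13_R6 (exact 95% interval 2.92 to 758), 3.75 in S9CC47_R5 (1.03 to 20.5) and 3.36 in S9CC47_R6 (1.19 to 11.6). Summed over cultures, 9 reads at 0h became 50 at 24h, a ratio of 5.16 with an interval of 2.51 to 11.9. These intervals cover counting error only and treat each read as independent, although no molecular identifiers were stated. The summed interval also pools the reads of 3 cultures and leaves out the spread between them. The value of S9CC13_R6 rests on a single read at 0h. In bulk samples, more cells with a transcript and more of it per cell cannot be told apart.

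In the fit across all genes the RUNX2 log2 fold change in T>C reads at 24h was 2.08 (SE 0.955, 95% interval 0.21 to 3.96), with an unadjusted p of 0.0291 and an adjusted p of 0.283 by DESeq2, and it was not called. The cultures pair the samples across times. A fit that took the culture as a replicate block, without batch or surrogate variable, gave another call. Its log2 fold change was 2.56 (SE 0.927), and its adjusted p of 0.0972 by DESeq2 fell just under the threshold. Leaving out the surrogate variable alone gave 2.39 (SE 0.891, adjusted p = 0.124, DESeq2). These values all come after a filter that RUNX2 passed through the 24h libraries. With all genes of at least 1 T>C read kept, the fit with batch and surrogate variable gave 2.08 (SE 0.99, adjusted p = 0.395, DESeq2). That value compares with the adjusted p of 0.283 from the same fit after the filter. The replicate block was not fitted with all genes kept. The fit with the replicate block called 6.00% of all genes tested, against 4.98% in the fit with batch and surrogate variable. By edgeR's quasi-likelihood test the value was 2.07 with an adjusted p of 0.142. RUNX2 T>C reads were higher at 24h than at 0h in 3 of 3 cultures, and for 11.0% of all genes tested the 3 samples at 24h lay above the 3 at 0h. At 3h the log2 fold change was 0.63 (SE 0.982, adjusted p = 0.998, DESeq2), and for 24h against 3h it was 1.45 (SE 0.964, adjusted p = 0.787, DESeq2). With each culture left out, the value at 24h was 1.68 without S9CC13_R6, 2.11 without S9CC47_R5 and 2.58 without S9CC47_R6, and none was called, at adjusted p-values of 1.0, 0.82 and 1.0 by DESeq2. In all reads RUNX2 did not pass the filter. With all genes of at least 1 count kept, its log2 fold change at 24h was 2.25 (SE 0.892, adjusted p = 0.116, DESeq2).

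**Figure D2:**
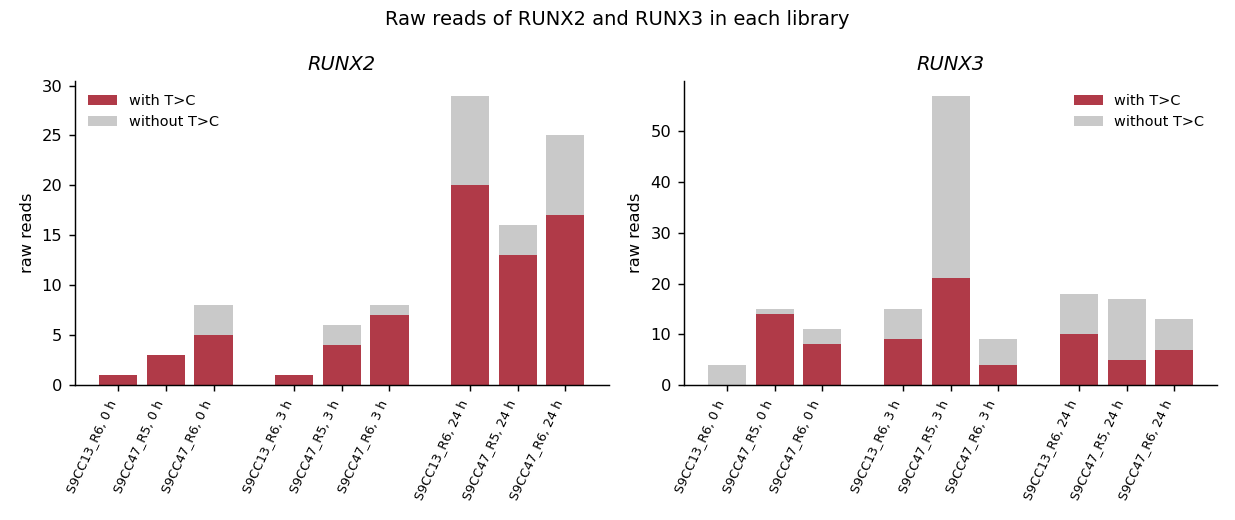
Raw reads of RUNX2 and RUNX3 in each of the 9 libraries (vertical axis, reads, with no correction for depth), split into reads with a T>C conversion (red) and without (grey). RUNX2 had 16 to 29 reads at 24h and 1 to 8 in the other libraries. RUNX3 had 57 reads in S9CC47_R5 at 3h and 4 to 18 elsewhere.

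RUNX3 lies on chromosome 1 from 24899511 to 24965121 on the minus strand, and its reads differed widely between cultures within a time. Its T>C reads were 0 in S9CC13_R6, 14 in S9CC47_R5 and 8 in S9CC47_R6 at 0h. In the same order, the 3h libraries held 9, 21 and 4 and the 24h libraries 10, 5 and 7. The groups overlapped throughout, and S9CC13_R6 at 0h was the only library with none. The size-factor normalised mean was 7.67 ± 8.57 T>C reads before treatment, 11.6 ± 6.77 after 3h and 6.62 ± 2.48 after 24h (mean ± SD, n = 3 per time). The log2 fold change was 0.66 at 3h (SE 0.907) and 0.27 at 24h (SE 0.942), with DESeq2 adjusted p-values of 0.994 and 0.953. Without S9CC13_R6 the values turned to -0.045 and -1.10.

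In all reads RUNX3 counted 4, 15 and 11 before treatment, 15, 57 and 9 after 3h, and 18, 17 and 13 after 24h. S9CC47_R5 at 3h stood apart with its 57 reads, of which 36 carried no conversion. Of the pooled RUNX3 reads, 22 of 30 carried a conversion at 0h (73.3%, Wilson 95% interval 55.6% to 85.8%), 34 of 81 at 3h (41.98%, 31.8% to 52.8%) and 22 of 48 at 24h (45.8%, 32.6% to 59.7%). The intervals at 0h and 3h did not overlap, but they treat the reads of 3 libraries as one pool. Over libraries, T>C reads against unconverted reads differed by -1.06 between 3h and 0h (log2, SE 1.25, adjusted p = 0.999, DESeq2), and that value was 0.85 without S9CC47_R5.

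RUNX1, on chromosome 21 from 34787801 to 36004667, gave 8 T>C reads and 20 reads in all over the 9 libraries. No library held more than 3 T>C reads or 7 reads in all, and 5 libraries held no T>C read. With all genes of at least 1 count kept, the log2 fold change of all RUNX1 reads was 0.35 at 3h (SE 1.79) and -2.31 at 24h (SE 2.1, adjusted p = 0.683, DESeq2), so no difference could be detected at this depth. The blood markers named above were near 0 in the same libraries.

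CBFB, the partner shared by the RUNX proteins, lies on chromosome 16 from 67028984 to 67101058 and was the most read of the members. Its size-factor normalised T>C reads were 651, 608 and 647 before treatment, for S9CC13_R6, S9CC47_R5 and S9CC47_R6 in that order. After 3h they were 638, 582 and 566, and after 24h 620, 696 and 685. All 3 cultures were lower at 3h than at 0h, and 2 of 3 were higher at 24h, while the ranges overlapped at both times. The log2 fold change at 3h was -0.11 (SE 0.112, 95% interval -0.33 to 0.11) and that at 24h 0.10 (SE 0.115, interval -0.13 to 0.32), with adjusted p-values of 0.981 and 0.814 by DESeq2. In all reads the values were -0.10 (SE 0.0832) and 0.09 (SE 0.0866). Against 3h, all reads of CBFB at 24h were higher by 0.19 on the log2 scale (SE 0.0927), with an unadjusted p of 0.041 and an adjusted p of 0.314 by DESeq2.

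**Figure D3:**
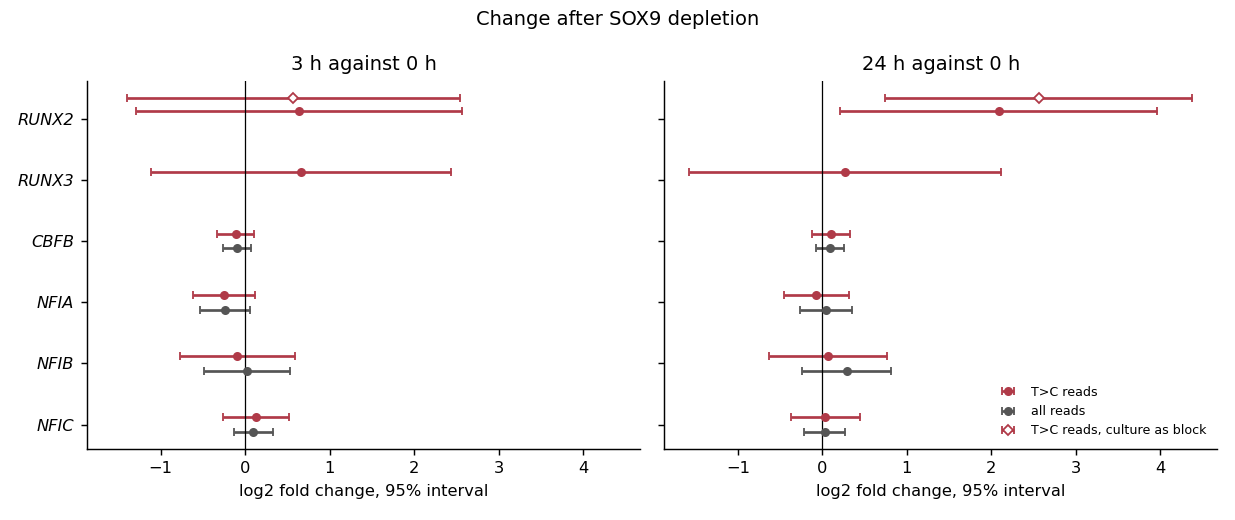
Log2 fold change (horizontal axis) with its 95% interval, at 3 h and at 24 h against 0 h, for the 6 genes that passed the filter in T>C reads (red) and the 4 that passed in all reads (grey). Open diamonds give RUNX2 with the culture as a replicate block. At 24 h the RUNX2 interval in T>C reads runs from 0.21 to 3.96, its interval with the block also lies above 0, and those of CBFB, NFIA, NFIB, NFIC and RUNX3 hold 0.

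NFIA, NFIB and NFIC were measured in every library, and none was called at either time. NFIA, a factor that starts glial development in the spinal cord, lies on chromosome 1 from 60865259 to 61462788. Its size-factor normalised T>C reads were 207, 154 and 171 before treatment, 163, 125 and 165 after 3h, and 185, 151 and 156 after 24h, with cultures in the order used above. Every culture was lower at both later times than at 0h, while the ranges of the groups overlapped. The log2 fold change was -0.25 (SE 0.188, interval -0.62 to 0.12) at 3h and -0.07 (SE 0.194, interval -0.45 to 0.31) at 24h, with adjusted p-values of 0.93 and 0.942 by DESeq2. In all reads, the NFIA values were -0.24 (SE 0.151) at 3h and 0.04 (SE 0.157) at 24h.

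NFIB, known for the maturing of lung and brain, lies on chromosome 9 from 14081843 to 14398983. Its size-factor normalised T>C reads were 42.7, 53.2 and 41.9 before treatment, 43.7, 32.9 and 46.7 after 3h, and 46.5, 39.5 and 76.3 after 24h. S9CC47_R6 at 24h was the highest of the 9 libraries, and all ranges overlapped. The log2 fold change was -0.09 (SE 0.346) at 3h and 0.06 (SE 0.357, interval -0.64 to 0.76) at 24h, and without S9CC47_R6 the value at 24h was -0.17. All reads of NFIB were 59 to 108 at 0h, 66 to 80 at 3h and 69 to 174 at 24h, and they were higher at 24h than at 0h in 3 of 3 cultures after scaling. Their log2 fold change at 24h was 0.29 (SE 0.269, adjusted p = 0.554, DESeq2).

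NFIC, known for the growth of tooth roots, lies on chromosome 19 from 3314403 to 3469217. Its size-factor normalised T>C reads were 120, 146 and 138 before treatment, 146, 169 and 128 after 3h, and 130, 139 and 144 after 24h. The 3 times overlapped, with 24h inside the range at 0h. The log2 fold change was 0.13 (SE 0.2, interval -0.26 to 0.52) at 3h and 0.03 (SE 0.208, interval -0.37 to 0.44) at 24h. All reads of NFIC gave log2 fold changes of 0.09 (SE 0.118) and 0.03 (SE 0.123).

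NFIX, on chromosome 19 from 12995475 to 13098796, gave 0 T>C reads in all 9 libraries. Over the libraries together, a count of 0 allows a level of up to 0.0790 CPM of T>C reads. Its reads in all were 2 in S9CC13_R6 and 4 in S9CC47_R5, both at 3h, and 0 in the other 7 libraries.

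No member was called in the fits with batch and surrogate variable. At 3h, 0 of 6 members were called in T>C reads where 1.79% of all genes were, and at 24h 0 of 6 where 4.98% were. For 24h against 3h the count was 0 of 6, beside 1.14% of all genes. In all reads it was 0 of 4 at 3h, at 24h and for 24h against 3h, beside 1.89%, 15.0% and 5.39% of all genes. An unadjusted p under 0.05 by DESeq2 was found for RUNX2 in T>C reads at 24h and for CBFB in all reads at 24h against 3h. By edgeR's quasi-likelihood test 0 members were called in each of these comparisons, with an unadjusted p under 0.05 in the same comparisons for 1 member each. The median log2 fold change of all genes was within 0.02 of 0 in each of these fits.

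The share of a gene's reads that carry a conversion was set against that of other genes, as a description. It rests on how much of the RNA was new and also on how many T bases the sequenced stretch holds, which was not measured here. Over the pooled 0h libraries, the share was 31.7% for CBFB, 51.5% for NFIA, 59.8% for NFIB and 16.5% for NFIC, beside a median of 27.8% over the genes tested. NFIC thus lay above 23.2% of those genes, CBFB above 57.7%, NFIA above 87.2% and NFIB above 94.2%. RUNX2 had 9 of 12 reads converted at 0h (75.0%, Wilson 95% interval 46.8% to 91.1%), 12 of 15 at 3h and 50 of 70 at 24h (71.4%, 59.95% to 80.7%). These genes all passed the filter on T>C reads.

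**Figure D4:**
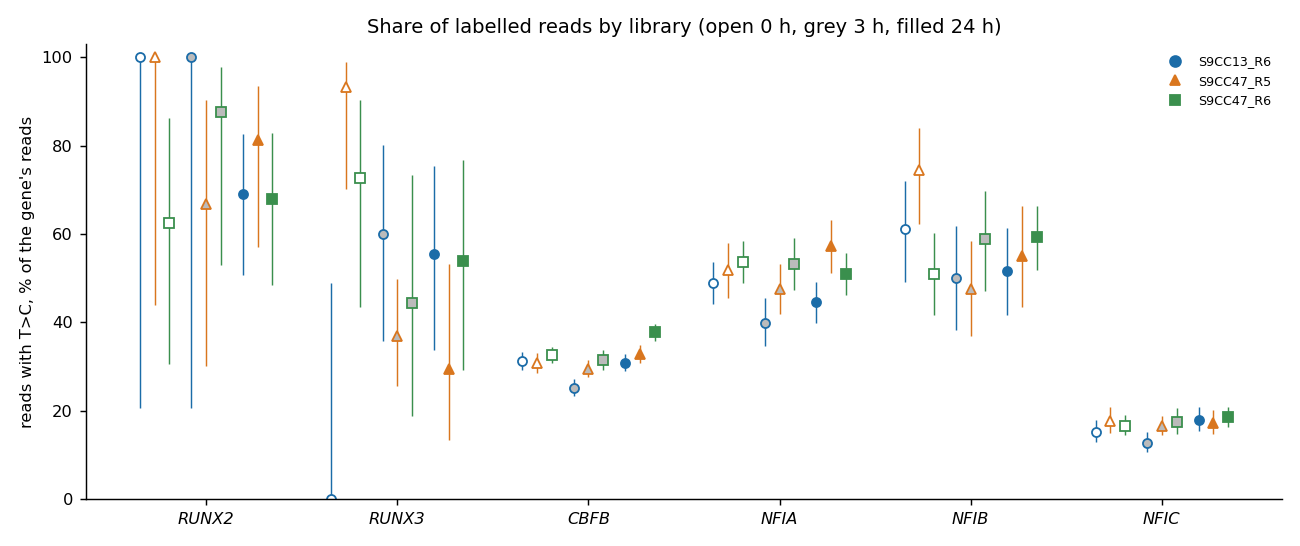
Reads with a T>C conversion as a percentage of the gene's reads (vertical axis) in each library, with Wilson 95% intervals that cover counting error only. Colours and shapes are cultures, and fill gives the time. NFIC lies between 12.7% and 18.4% in every library and NFIA between 39.9% and 57.3%, while RUNX2 and RUNX3 have wide intervals.

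The share was compared between times for the 4 well-read members, in 8 tests. The share of CBFB was 31.5% ± 0.995 before treatment, 28.7% ± 3.16 after 3h and 33.8% ± 3.56 after 24h (mean ± SD, n = 3 per time). The NFIA share was 51.5% ± 2.43, 46.9% ± 6.66 and 50.9% ± 6.40 at the same times. That of NFIB was 62.2% ± 11.9, 52.1% ± 5.95 and 55.3% ± 3.81, and that of NFIC was 16.5% ± 1.23, 15.5% ± 2.49 and 17.8% ± 0.612. The largest difference was that of NFIB at 3h, at -10.1 percentage points (exact permutation test, two-sided p = 0.2, Benjamini-Hochberg adjusted p = 0.64). The exact p was 0.2 to 0.9 over the 8 tests, and 3 samples against 3 cannot go below 0.1. Whole libraries moved too, with T>C reads making up 18.5% to 20.1% of all reads before treatment, 15.9% to 19.5% after 3h and 19.8% to 21.3% after 24h. Divided by the library's share, the NFIC share was 0.862 at 0h and 0.87 at 24h, and the CBFB share was 1.65 and 1.64. That of NFIA was 2.69 and 2.48 (exact permutation p = 0.3), and that of NFIB 3.24 and 2.69 (exact permutation p = 0.2).

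T>C reads were also tested against unconverted reads of the same libraries. No member was called at 3h (0 of 6, beside 0.266% of all genes) or at 24h (0 of 6, beside 0.0166%), and none had an unadjusted p under 0.05 by DESeq2 or edgeR. RUNX2 had a difference of -0.58 at 24h on the log2 scale with an SE of 1.52. For CBFB it was 0.04 (SE 0.123) and for NFIC 0.03 (SE 0.187).

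Cultures were compared over the 3 times with time as a term, and each contrast is between 2 cultures. Between S9CC13_R6 and S9CC47_R6, which differ in clone, 0 of 6 members were called in T>C reads and 0 of 4 in all reads, beside 1.32% and 3.38% of all genes. Between S9CC47_R5 and S9CC47_R6, which differ in differentiation batch, the counts were again 0 of 6 and 0 of 4, beside 0.690% and 1.65%. No member reached an unadjusted p under 0.05 by DESeq2 or edgeR in these 4 fits. NFIA in all reads had the lowest adjusted p, at 0.479 by DESeq2, and was higher in S9CC13_R6 than in S9CC47_R6 by 0.27 on the log2 scale (SE 0.154). RUNX3 T>C reads were higher in S9CC47_R5 than in S9CC47_R6 by 1.25 (SE 0.894, adjusted p = 0.991, DESeq2). NFIB T>C reads were lower in S9CC47_R5 than in S9CC47_R6, with a log2 difference of -0.38 (SE 0.353).

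Genes that act with the members or below them were taken from gene lists by their known roles. Of 22 RUNX cofactors, 21 were tested in T>C reads. At 3h, 0 rose and 3 fell, beside 1.01% and 0.789% of all genes, and the median log2 fold change of the list was -0.03 against -0.01 for all genes. The 3 that fell were TLE1 (-0.50, SE 0.135, adjusted p = 0.0162), TLE3 (-0.67, SE 0.183, adjusted p = 0.0231) and RUNX1T1 (-0.24, SE 0.0753, adjusted p = 0.0746, all by DESeq2). TLE1 and TLE3 are corepressors that RUNX proteins recruit, and RUNX1T1 is a corepressor of the ETO family. With any 1 culture left out none of the 3 was called, and without S9CC47_R6 the TLE3 value was 0.03, where the other fits gave values below 0. Fits with a culture left out have fewer samples and called 8 to 89 of all genes at 3h, against 216. A call lost in such a fit, here or below, does not by itself show dependence on that culture. RUNX1T1 also lost its call with the replicate block (-0.26, adjusted p = 0.269, DESeq2), by edgeR and without the surrogate variable, and TLE3 lost its call without the surrogate variable. At 24h 1 cofactor rose, the corepressor TLE4 (0.48, SE 0.139, adjusted p = 0.021, DESeq2), and 0 fell, beside 2.38% and 2.59% of all genes, and with a culture left out TLE4 was called without S9CC47_R5 only. In all reads at 24h, 1 of 20 cofactors tested rose and 2 fell, where 15.0% of all genes were called, so the list did not stand out. TLE4 rose (0.48, adjusted p = 0.000163), while TLE1 (-0.33, adjusted p = 0.0152) and TLE3 (-0.31, adjusted p = 0.0922, all by DESeq2) fell. With any 1 culture left out, these calls of TLE1 and TLE3 were lost. The median was -0.04 against 0.00.

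Of 17 bone genes known to act with or below RUNX2, 8 were tested in T>C reads, and 3 rose and 0 fell at 24h, beside 2.38% and 2.59% of all genes. Their median log2 fold change was 0.54, against 0.00 for all genes. TNFRSF11B, which codes for osteoprotegerin, a decoy that limits bone resorption, rose by 1.77 on the log2 scale (SE 0.143, adjusted p = 9.72e-32, DESeq2), and it was called with each culture left out in turn. Its size-factor normalised T>C reads went from 235 ± 42.9 before treatment to 352 ± 78.8 after 3h and 721 ± 102 after 24h (mean ± SD, n = 3 per time). The chains of type I collagen also rose at 24h. The log2 fold change of COL1A1 was 1.11 (SE 0.344, adjusted p = 0.0378) and that of COL1A2 was 0.52 (SE 0.118, adjusted p = 0.000652, both by DESeq2). COL1A1 lost its call with any 1 culture left out, at 0.83 to 1.40, and COL1A2 kept it only without S9CC47_R5. In all reads TNFRSF11B (1.70) and COL1A2 (0.51) were called at 24h with each culture left out, and COL1A1 (0.34) lost its call each time. At 3h TNFRSF11B was the 1 bone gene of 8 called in T>C reads (0.50, SE 0.141, adjusted p = 0.0323, DESeq2), beside 1.79% of all genes. That call was lost with any 1 culture left out, without the surrogate variable and with size factors from total reads.

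Other bone genes ranged from no reads to a clear level with no call. BGLAP, which codes for osteocalcin of bone matrix, reached 12.8 CPM of all reads and had a log2 fold change in T>C reads at 24h of -0.16 (SE 0.521, adjusted p = 0.953, DESeq2). MMP13, DMP1, TNFSF11 and OMD had 0 reads in every library, and 8 of the 16 bone genes listed in the tables stayed under 1 CPM of all reads in every library, those 4 included. SPARC, a protein of bone matrix, had a log2 fold change of 0.55 at 24h (SE 0.2, adjusted p = 0.115, DESeq2).

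Of 10 hypertrophic cartilage genes 5 were tested and none was called at 3h or at 24h, with a median of -0.10 at 24h. Beside 1.79% and 4.98% of all genes called at those times, no call among 5 genes says little. COL10A1, the collagen that defines enlarging cartilage cells, had 0 reads in every library, as did MMP13 and PANX3. Of 15 early cartilage genes 8 were tested, and 5 fell and 0 rose at 24h, beside 2.59% and 2.38% of all genes, with a median of -0.90. They were SOX5, COL2A1, COL9A1, SOX6 and COL11A1, and COL2A1, the collagen of cartilage and a known target of SOX9, had a log2 fold change of -1.10 (SE 0.134, adjusted p = 8.73e-14, DESeq2). COL2A1 and SOX6 were called with each culture left out, SOX5 lost its call without S9CC13_R6 (-1.14), and COL9A1 and COL11A1 lost theirs with any 1 culture left out, at -1.37 to -0.84 and -0.53 to -0.30. In all reads SOX5 (-1.17) and COL11A1 (-0.40) were called at 24h with each culture left out.

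**Figure D5:**
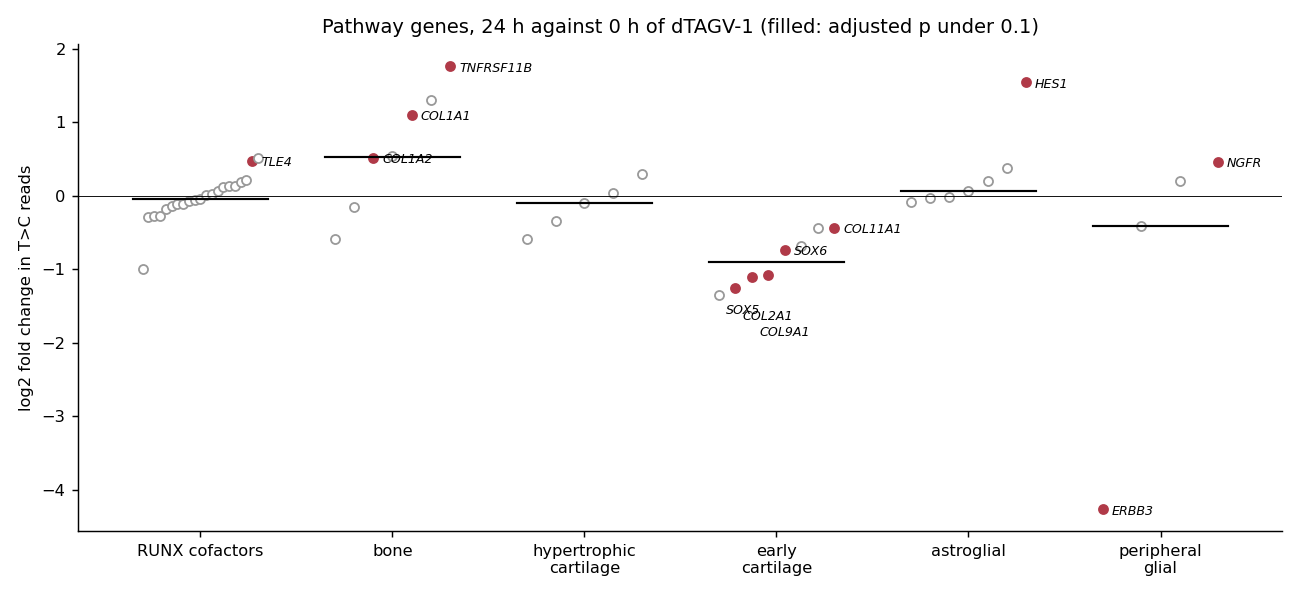
Log2 fold change in T>C reads at 24 h against 0 h (vertical axis) of genes tested in 6 gene lists, less 2 that are not reported here. Filled points passed an adjusted p under 0.1, open points did not, and black lines are list medians over all genes tested. Among filled points, TNFRSF11B, COL1A1 and COL1A2 lie above 0 in the bone list and 5 genes lie below 0 in the early cartilage list. Open points also lie on the same sides in both lists.

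Glial genes were set beside the NFI members. Of 15 genes listed for the astroglial programme of NFI factors and SOX9, not all of which need these factors, 7 were tested in T>C reads. HES1, a Notch target that keeps progenitors undifferentiated, rose by 0.73 at 3h (SE 0.191) and by 1.55 at 24h (SE 0.195), with DESeq2 adjusted p-values of 0.0114 and 9.7e-13, and no other gene of the list was called in T>C reads. That is 1 of 7 at each time, beside 1.79% of all genes at 3h and 4.98% at 24h. In all reads at 3h, 2 of 7 were called, beside 1.89% of all genes. In all reads ZCCHC24, a zinc finger gene, was also called at 3h (0.31, SE 0.0893, adjusted p = 0.033, DESeq2), but not with the replicate block (0.32, adjusted p = 0.185, DESeq2) or with any 1 culture left out. At 24h HES1 was called with each culture left out, and at 3h only without S9CC47_R5. The 3h call was also lost with the replicate block (0.57, adjusted p = 0.98, DESeq2) and without the surrogate variable. The list's median was 0.06 at 24h. GFAP, the filament protein that defines astrocytes, stayed under 0.06 CPM of all reads. APCDD1, which NFIA and SOX9 are known to switch on together in glial precursors, had -0.03 (SE 0.46, adjusted p = 0.992, DESeq2) at 24h.

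Of 11 peripheral glial genes 5 were tested in T>C reads, and at 24h 1 rose and 2 fell, beside 2.38% and 2.59% of all genes, with a median of -0.41. NGFR, a neurotrophin receptor of crest cells, rose by 0.47 (SE 0.127, adjusted p = 0.0104, DESeq2), a call lost without S9CC47_R5 (0.27) and without S9CC47_R6 (0.57). Of those that fell, ERBB3 is described here. It lies under the level of 50 normalised T>C reads set for naming and was named after its values were seen. ERBB3, the neuregulin receptor of Schwann cell precursors, had 44, 32 and 48 T>C reads before treatment, 9, 4 and 3 after 3h, and 3, 2 and 0 after 24h. It fell at 3h and at 24h, with adjusted p-values of 0.000466 and 7.15e-05 by DESeq2. With 1 culture left out, ERBB3 at 24h kept its call only without S9CC47_R5, and its 3h call was lost in each of the 3 fits. Without S9CC13_R6, S9CC47_R5 and S9CC47_R6 its log2 fold change at 24h was -5.12, -4.18 and -3.93, against -4.26 with all cultures. Over all genes, T>C calls at 24h went from 599 to 67, 269 and 78 in those fits. The lost calls therefore do not show that the fall depends on 1 culture. In all reads ERBB3 was called at 24h with each culture left out. The level of SOX10, a gene of this list that is not particular to glia, was 0.153 CPM of all reads or less. The NFI members were not called at 24h in T>C reads.

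Genes whose T>C reads moved most like those of a member were found by Pearson's r over the 9 libraries, after each culture's mean was taken out, among 8675 other genes. The 9 points share 3 cultures and their size factors. Nearest to CBFB were ATG3 (r = 0.977), EZH2 (0.962) and AKIP1 (0.96). Nearest to NFIA were ZRANB2 (0.977), TERF2IP (0.971) and ABT1 (0.959). Nearest to NFIC were WDR82 (0.939), ZDHHC3 (0.936) and MYL6 (0.932). NFIB and the RUNX genes lay under the level of 50 set for this search.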

How the data were processed

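The authors deposited raw read counts per gene symbol in 2 tables of 9 columns, one of all reads and one of reads with a T>C conversion. Per their methods, read 1 was trimmed with skewer and stripped of poly(A) before slamdunk mapped and counted it, and the build was hg38. The counts were not normalised, the sources used here name no molecular identifiers, and the counted 3′ intervals were not used here. Groups came from the sample titles. Gene types came from GENCODE, and 18769 symbols were protein-coding.

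DESeq2 1.42.0 (R 4.3.3) was fitted on all 9 samples with time, differentiation batch and 1 surrogate variable (sva 3.50.0, on counts divided by size factors). Tests covered the protein-coding genes that reached 1 CPM in 3 or more samples, 12037 in T>C reads and 11710 in all reads, and called at a Benjamini-Hochberg adjusted p under 0.1. Culture contrasts used time and culture. T>C against unconverted reads used library, read kind, and read kind by batch and by time. Normalised reads are counts over the DESeq2 size factor of the library. Shares of T>C reads were compared by an exact two-sided permutation test (SciPy 1.17.1) and carry Wilson 95% intervals.

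The members and lists were chosen with earlier results of these data known. All 8 members are named, with SOX9 and COL2A1 as reference. From each list, up to 6 called genes whose mean reached 50 normalised T>C reads were eligible for naming, ranked by their change at 24h in T>C reads, and for members at that level the 3 genes most alike were named. Uncalled list genes are named as examples of the list, and some list genes are counted but not reported here.

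The cultures pair samples across times by the clone and batch in the titles. Deviations from group means correlated within cultures at 0.131 on average in T>C reads (9 pairs, 0.017 to 0.286) and at 0.273 in all reads (-0.057 to 0.606). Alternatives were the culture as a replicate block, edgeR 4.0.16 with TMM, TMM factors in DESeq2, all genes with at least 1 count, no surrogate variable, size factors from total reads and each culture left out, with the surrogate variable's values kept. A fit with a culture left out had fewer samples, and only the fit without S9CC47_R5 dropped the batch term. Between times, such fits called fewer genes in T>C reads and in all reads than the fit on all samples. The fits were tested on simulated data. Human sequence windows came from RefSeq.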

Additional observations from a re-analysis of the deposited data

How the results depend on the processing

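The count of called members was 0 in every comparison, and it stayed 0 in 86 of 87 alternative fits. The exception was T>C reads at 24h under the replicate block, which called 1 member, RUNX2, at a log2 fold change of 2.56. That fit also leaves out the surrogate variable, which alone gave 2.39 (adjusted p = 0.124, DESeq2). RUNX2 had passed the filter through its 24h libraries, and the replicate block was not fitted with all genes kept. In the fit with batch and surrogate variable, the DESeq2 adjusted p was 0.283 after the filter and 0.395 with all genes kept. The replicate block changed no other call of a member. Several uncalled values near 0 changed sign. In all reads, without the surrogate variable, NFIB at 3h was -0.0500, NFIA at 24h -0.00888 and NFIC at 24h -0.00151, and with the replicate block they were -0.0404, -0.00793 and -0.00156. In edgeR the T>C against unconverted value of NFIC at 24h was -0.00741. Divided by the library's own share, the share difference of CBFB at 24h was -0.00436 and that of NFIC at 3h 0.00509.
With each culture left out, T>C reads at 3h gave -0.0449 to 3.42 for RUNX3, -0.35 to 0.12 for NFIB and -0.74 to 0.0327 for TLE3. At 24h they gave -1.10 to 1.52 for RUNX3, -0.18 to 0.37 for NFIB and -0.00516 to 0.11 for NFIC. For 24h against 3h they gave -3.395 to 0.40 for RUNX3 and -0.35 to 0.0297 for NFIC. All reads gave -0.13 to 0.13 for NFIB at 3h, -0.12 to 0.18 for NFIA and -0.0169 to 0.0705 for NFIC at 24h, and -0.14 to 0.0485 for NFIC at 24h against 3h. T>C against unconverted reads at 3h gave -1.645 to 1.61 for RUNX2, -2.93 to 0.85 for RUNX3, -0.0981 to 0.0296 for CBFB and -0.92 to 0.0822 for NFIB. At 24h they gave -3.09 to 0.66 for RUNX3, -0.00647 to 0.13 for CBFB and -0.0299 to 0.0849 for NFIC. The share difference of NFIA at 24h ran from -3.56 to 1.36 points. With each time left out, S9CC13_R6 against S9CC47_R6 gave -0.41 to 1.06 for RUNX3, -0.0677 to 0.0939 for CBFB and -0.18 to 0.00284 for NFIC in T>C reads, and -0.19 to 0.11 for NFIC in all reads. S9CC47_R5 against S9CC47_R6 gave -0.0288 to 0.0323 for CBFB in T>C reads. No member was called in these fits.
Counts over all genes moved more than those of the members. T>C calls at 24h went from 599 to 968 by edgeR and to 67 to 269 with a culture left out, and those at 3h from 216 to 8 to 89. For 24h against 3h, T>C calls went from 137 to 267 by edgeR, 373 without the surrogate variable, 530 with the replicate block, 268 with size factors from total reads and 0 to 40 with a culture left out. Calls in all reads at 3h went from 221 to 118 without the surrogate variable, 141 with the block and 5 to 156 with a culture left out, at 24h from 1751 to 282 to 911, and for 24h against 3h from 631 to 1546 with the block and 8 to 191. T>C against unconverted calls went from 32 to 5 to 25 at 3h, and from 2 to 1 by edgeR and 0 to 3 at 24h. Between cultures, S9CC13_R6 against S9CC47_R6 went from 159 to 10 to 294 in T>C reads, and from 396 to 141 by edgeR and 29 to 1154 in all reads, with a time left out. S9CC47_R5 against S9CC47_R6 went from 83 to 9 to 123, and from 193 to 108 by edgeR and 36 to 837. Size factors from total reads moved the median of all genes by about -0.1 at 3h and 0.1 for 24h against 3h, and the share of higher genes among calls from 56% to 32.1% and from 47.4% to 78%. RUNX1, RUNX2, RUNX3 and NFIX are limited by depth.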
